A study of Mus musculus with 2 samples.

Results

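Aire-high, non-cycling medullary thymic epithelial cells (mTECs) were taken from 2 single-cell RNA libraries of mouse thymus, one from Foxp1 KO (Cre+) and one from Foxp1 WT (Cre-) thymus by their labels. Both libraries were live EPCAM+ cells sorted after enzymatic digestion and a Percoll gradient. The genotype field of both samples reads KO, and each group is 1 library. The sources used here do not give the Cre driver, the age or the number of mice. A cell was kept if it had 500 or more genes, 1000 or more UMIs (unique molecular identifiers, each a captured transcript) and no more than 10% mitochondrial UMIs. Cells were then chosen by their own measured counts: at least 5 Aire UMIs, and a UMI in fewer than 3 of the 6 cycling genes Mki67, Top2a, Birc5, Cdk1, Ube2c and Pclaf. That gave 1381 of 7621 kept cells, 548 of 3584 in the KO-labelled library and 833 of 4037 in the WT-labelled library. Aire and cycling levels are therefore given as descriptions only. With 1 library per group no difference between the groups could be tested, and every interval is a 95% interval that covers counting error only.

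Aire is a nuclear factor that lets mTECs transcribe a wide range of genes otherwise limited to other tissues, so that developing T cells meet those proteins in the thymus and self-reactive ones are removed or diverted. Fezf2 is a transcription factor that drives a further, partly separate set of such tissue-restricted antigens. Each mTEC is known to use only a small and variable part of this repertoire at a time. Foxp1 belongs to the forkhead family of transcription factors, and the title of the series places it upstream of Fezf2-dependent expression.

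A median Aire-high cell held 11032.5 UMIs and 3404 genes in the KO-labelled library, against 12203 UMIs and 3665 genes in the WT-labelled library. The median Aire count was 11 UMIs in both, and the highest single cell held 61 in the KO-labelled library and 67 in the WT-labelled library. The label was checked against marker genes that the rule did not use: Fezf2 was 2.03 higher on the log2 scale than in non-cycling cells without Aire in the KO-labelled library and 2.01 higher in the WT-labelled library, and Csn2 2.67 and 2.47 higher. An Epcam UMI was present in 91.2% of the cells labelled KO and 92.0% of those labelled WT. The selected cells held 79.9% of all Aire UMIs of kept cells in the KO-labelled library and 82.0% in the WT-labelled library. No UMI in any of the cycling genes was found in 63.7% of the cells labelled KO and 63.4% of those labelled WT. The 2 libraries shared 5 barcodes, of which 0 were Aire-high cells.

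**Figure D1:**
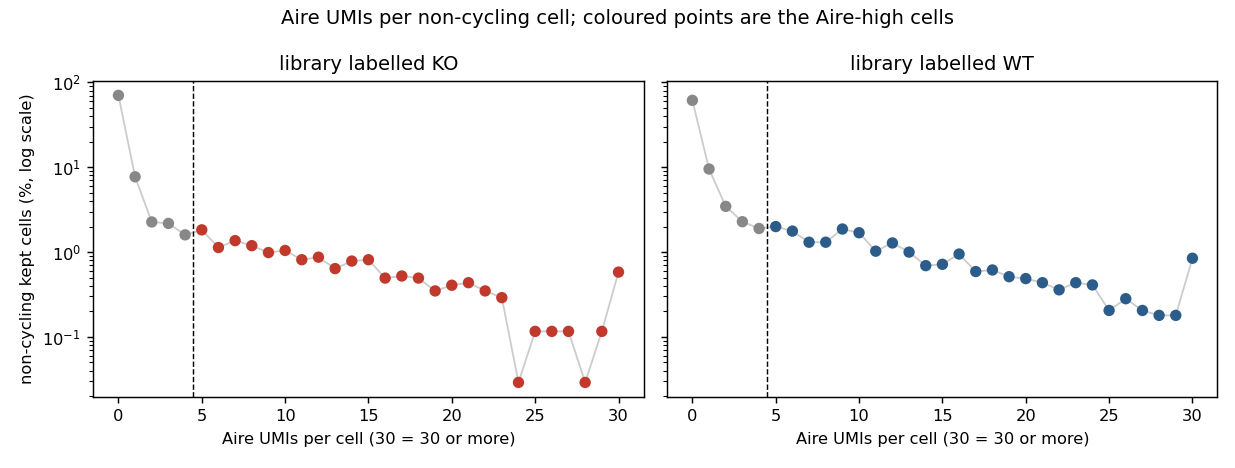
Share of non-cycling kept cells (vertical axis, %, log scale) with each number of Aire UMIs (horizontal axis), in the KO-labelled library (left) and the WT-labelled library (right); coloured points right of the dashed line are the Aire-high cells. The distribution runs on without a gap across the threshold, with 55 and 63 cells at 4 and 5 Aire UMIs in the KO-labelled library and 74 and 78 in the WT-labelled library.

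The threshold cut through a continuous range. Just outside it, the 55 non-cycling cells with 4 Aire UMIs in the KO-labelled library had Fezf2 at 365 CPM (counts of UMIs scaled to a common total over the cells) and Csn2 at 1226 CPM. Just inside it, the 63 cells with 5 Aire UMIs had 391 and 1102 CPM. In the WT-labelled library, the 74 cells with 4 Aire UMIs had Fezf2 at 548 CPM and Csn2 at 1137 CPM, and the 78 cells with 5 had 481 and 1144 CPM. Neither gene stepped in one direction at the threshold in both libraries.

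Aire-high cells made up 15.3% of kept cells in the KO-labelled library (exact binomial interval 14.1 to 16.5) and 20.6% in the WT-labelled library (19.4 to 21.9). The log2 ratio of these shares was -0.43, with an interval of -0.59 to -0.28. Requiring an Epcam UMI gave 18.5% and 24.0% in the KO- and WT-labelled libraries. A median kept cell held 5097.5 UMIs in the KO-labelled library and 6267 in the WT-labelled library. When cells were thinned to 2000 UMIs each and 2 Aire UMIs were required, the shares were 13.5% and 16.2% in the KO- and WT-labelled libraries, and the log2 ratio was -0.27. That setting changed the depth and the Aire threshold together and left out cells under 2000 UMIs. The parts of depth and of cell capture in the difference were not tested.

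Foxp1 itself was not lower in the KO-labelled library. It stood at 158 CPM (149 to 168) in Aire-high cells labelled KO and at 120 CPM (114 to 127) in those labelled WT, a log2 ratio of 0.40 (0.28 to 0.52). Cells without Aire showed the same order, at 588 and 393 CPM in the KO- and WT-labelled libraries. The counts cover the whole gene and cannot show whether a part of it was deleted, so the groups are named by their labels throughout. Of the other Foxp genes, Foxp4 was at 148 CPM in the KO-labelled library and 188 CPM in the WT-labelled library, a log2 ratio of -0.34 (-0.45 to -0.23). Foxp2 was at 22.4 and 26 CPM in the KO- and WT-labelled libraries, with an interval that includes equality. Foxp3 had too few UMIs to compare.

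Fezf2, whose product drives its own set of self-antigens, was lower in Aire-high cells of the KO-labelled library. Its level was 434 CPM (418 to 450) in the KO-labelled library and 533 CPM (520 to 547) in the WT-labelled library, a log2 ratio of -0.30 (-0.36 to -0.23). The difference did not reach 1.5-fold. A Fezf2 UMI was found in 453 of 548 cells labelled KO and in 743 of 833 cells labelled WT. A fixed depth of 5000 UMIs per cell was reached by 528 and 781 cells of the KO- and WT-labelled libraries. There the shares were 70.3% (exact interval 66.2 to 74.1) in the KO-labelled library and 78.2% (75.2 to 81.1) in the WT-labelled library. These intervals do not overlap. The interval of their ratio includes equality (-0.34 to 0.03). It is built from the counts of cells with a UMI alone and is too wide for shares this high. A lower Fezf2 level was not limited to these cells: the log2 ratio was -0.28 in non-cycling cells with 1 to 4 Aire UMIs and -0.31 in non-cycling cells with none. For comparison, cells without Epcam that carried at least 3 of 8 endothelial markers had a Fezf2 UMI in 7.64% of 144 cells in the KO-labelled library and in 19.6% of 51 cells in the WT-labelled library, at median depths of 2450.5 and 3291 UMIs. The level in those cells was 39.6 CPM in the KO-labelled library and 102 CPM in the WT-labelled library.

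Fezf2 was also set against Aire within the Aire-high cells. Cells with 5 to 9, 10 to 19 and 20 or more Aire UMIs had Fezf2 at 412, 458 and 419 CPM in the KO-labelled library, against 493, 550 and 562 CPM in the WT-labelled library. The KO-labelled library was lower in each range. Foxp1 in the same 3 ranges was at 177, 153 and 136 CPM in the KO-labelled library, against 117, 118 and 130 CPM in the WT-labelled library.

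Of the antigens long used to mark Aire activity, the best known stood at close levels in both libraries. Csn2, a milk casein, had 1211 CPM in the KO-labelled library and 1258 CPM in the WT-labelled library and was seen in 471 of 548 and 741 of 833 cells. S100a8, a calcium-binding protein of neutrophils, had 1046 and 1011 CPM in the KO- and WT-labelled libraries, and Pcp4, a calmodulin-binding protein of Purkinje neurons, had 303 CPM in both. S100a8 was found in 40.0% of cells labelled KO and 46.0% of those labelled WT, and Pcp4 in 17.9% and 22.1%. At 5000 UMIs per cell the log2 ratios of the shares were -0.21 for S100a8 and -0.22 for Pcp4, and both intervals included equality. Csn2 was there in 75.8% of cells labelled KO (exact interval 71.9 to 79.4) and 83.0% of those labelled WT (80.1 to 85.5). As for Fezf2, these 2 intervals do not overlap, whereas the interval of their ratio, too wide for shares this high, includes equality (-0.31 to 0.05). In the shallower endothelial-marked cells the shares of the 3 genes ran from 4.17% to 16.7% in the KO-labelled library and up to 19.6% in the WT-labelled library, with Pcp4 in 0 of 51 cells there (exact interval up to 6.98%). The levels there were 634 and 425 CPM for Csn2, 185 and 527 CPM for S100a8, and 92.4 and 0 CPM for Pcp4 in the KO- and WT-labelled libraries.

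Genes beyond 1.5-fold with an interval clear of equality were counted over all 15818 genes with at least 50 UMIs in the Aire-high cells. By that rule 962 genes, or 6.08%, were higher in the KO-labelled library and 1207, or 7.63%, were lower. The median log2 ratio over all tested genes was -0.03. The list of 15 tested Aire-linked antigens (of 18 listed, 17 in the files) held 1 higher gene, Csn3, and 3 lower, Mup4, Zp3 and Wap, with a median of -0.05. On shares of cells at 5000 UMIs 0 of the 15 were called either way, the median was -0.22 and 12 lay below equality. Over all tested genes 2.0% were called higher and 2.33% lower on shares of cells, and 8504 of 15818 lay below equality. The 12 Fezf2-linked antigens held 3 higher genes, Apoc3, Calb1 and Crp, and 2 lower, Fabp9 and Ttr, with a median of 0.27. On shares of cells 1 of them was higher, Calb1, and 1 lower, Fabp9, and the median was 0.10. Apoc3 turned to -0.47 without its 5 highest cells in each library. Those 5 came from 52 cells labelled KO and 99 labelled WT, so a larger part was taken from the KO-labelled library. Ttr, seen in 3 cells labelled KO and 9 labelled WT at 5000 UMIs, lost its call. The lists were chosen with earlier results of these data known.

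Many called genes had their UMIs gathered in few Aire-high cells. For each tested gene the share of its UMIs held by the single highest cell of the higher library was computed. Its median was 18.1% over the genes higher in the KO-labelled library and 15.1% over the genes lower there, against 3.70% over the genes not called. In 145 of the 962 higher genes and 102 of the 1207 lower ones, 1 cell held at least 50% of the UMIs. Among the 10149 genes with at least 200 UMIs, 246 had all of them in the top 5% of cells.

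Hormone genes were among the most gathered. Pth, parathyroid hormone, had 63 UMIs in 11 cells in the KO-labelled library and 2291 UMIs in 20 cells in the WT-labelled library, a log2 ratio of -4.45. Of those 2291 UMIs, 2259 lay in 1 cell. At 5000 UMIs per cell Pth was seen in 9 cells of each library, and without the 5 highest cells of each library the log2 ratio was -0.27. Ins2, insulin, was in 28 cells of the KO-labelled library and 39 of the WT-labelled library, and its highest cell held 441 of 687 UMIs and 459 of 1042 UMIs in them. Its summed level was 102 CPM in the KO-labelled library and 92.9 CPM in the WT-labelled library. Sst, somatostatin, was in 15 cells labelled KO and 36 labelled WT, with a highest cell of 59 and 876 UMIs. Antimicrobial and skin genes gathered in the same way: Camp, a cathelicidin, lay in 22 cells labelled KO and 32 labelled WT, and Sprr2i, a cornified-envelope protein, in 25 and 39.

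**Figure D2:**
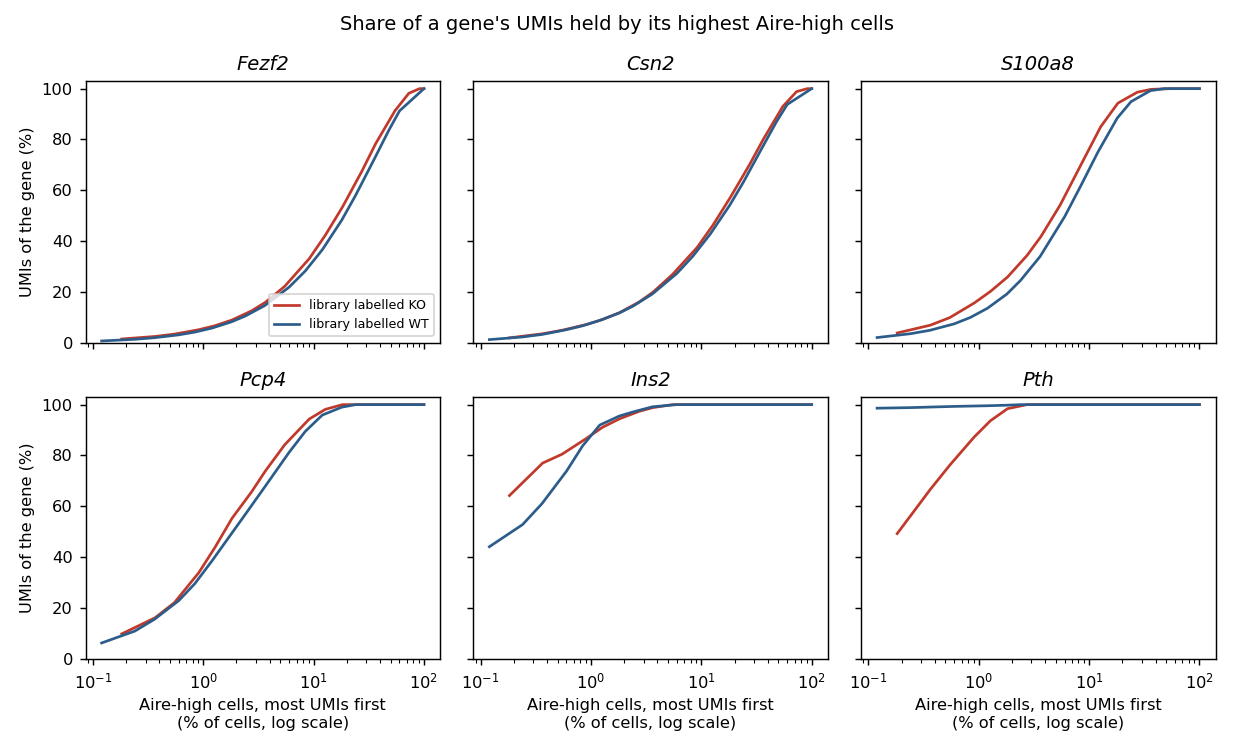
Cumulative share of a gene's UMIs (vertical axis, %) held by the Aire-high cells with most of them (horizontal axis, % of cells, log scale), in the KO-labelled library (red) and the WT-labelled library (blue). Fezf2 and Csn2 were spread over most cells, whereas 1 cell of the WT-labelled library held 2259 of the 2291 Pth UMIs.

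Ranked by the interval bound nearest equality among genes seen in at least 20 cells, Trp53cor1, a long non-coding RNA, led the higher ones, with 916 UMIs in 63 cells in the KO-labelled library and 226 UMIs in 101 cells in the WT-labelled library. A single cell labelled KO held 345 of them. At 5000 UMIs per cell 6.82% and 5.25% of cells in the KO- and WT-labelled libraries had a Trp53cor1 UMI, and the interval of that ratio included equality. Txndc16, with a log2 ratio of 1.87 on UMIs, was in 7.20% and 6.27% of cells of the KO- and WT-labelled libraries at that depth. Of the 12 top higher genes (Trp53cor1, Lmnb1, Morc1, St8sia2, Slc44a4, Scube1, Txndc16, Stn1, F8, Fbxo47, Spata7 and Zfp3), 1 was also called higher on cells: F8, a clotting factor, at 7.95% of cells labelled KO and 4.23% of those labelled WT.

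Of the 12 top lower genes, 3 were also called lower on cells: Aunip, Tac1 and Prtg. Aunip, which encodes a centrosome protein, had 79.1 CPM in the KO-labelled library (72.6 to 86.2) and 444 CPM in the WT-labelled library (432 to 456), a log2 ratio of -2.49. It was present in 25 of 548 cells labelled KO and in 121 of 833 cells labelled WT, and at 5000 UMIs per cell in 2.27% and 10.2%. In cycling cells with at least 5 Aire UMIs the order was turned, at 459 CPM in the KO-labelled library and 368 CPM in the WT-labelled library. Those groups held only 65 and 85 cells. Aunip UMIs were gathered, with up to 180 and 428 in 1 Aire-high cell of the KO- and WT-labelled libraries, so the turned order may rest on few cells. Tac1, the substance P precursor, was in 0.947% of cells labelled KO and 3.20% of those labelled WT at 5000 UMIs, and Prtg, a cell-surface protein of neural development, in 0.758% and 3.33%. Cblc, a ubiquitin ligase, was seen in 7.20% and 9.86% of cells of the KO- and WT-labelled libraries, an interval that includes equality, although its UMI ratio was -2.41. Others of this group were Pth, Ssc4d, Ube2cbp and the unnamed transcripts Gm42884, Gm15286, Gm11659 and Gm44618.

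**Figure D3:**
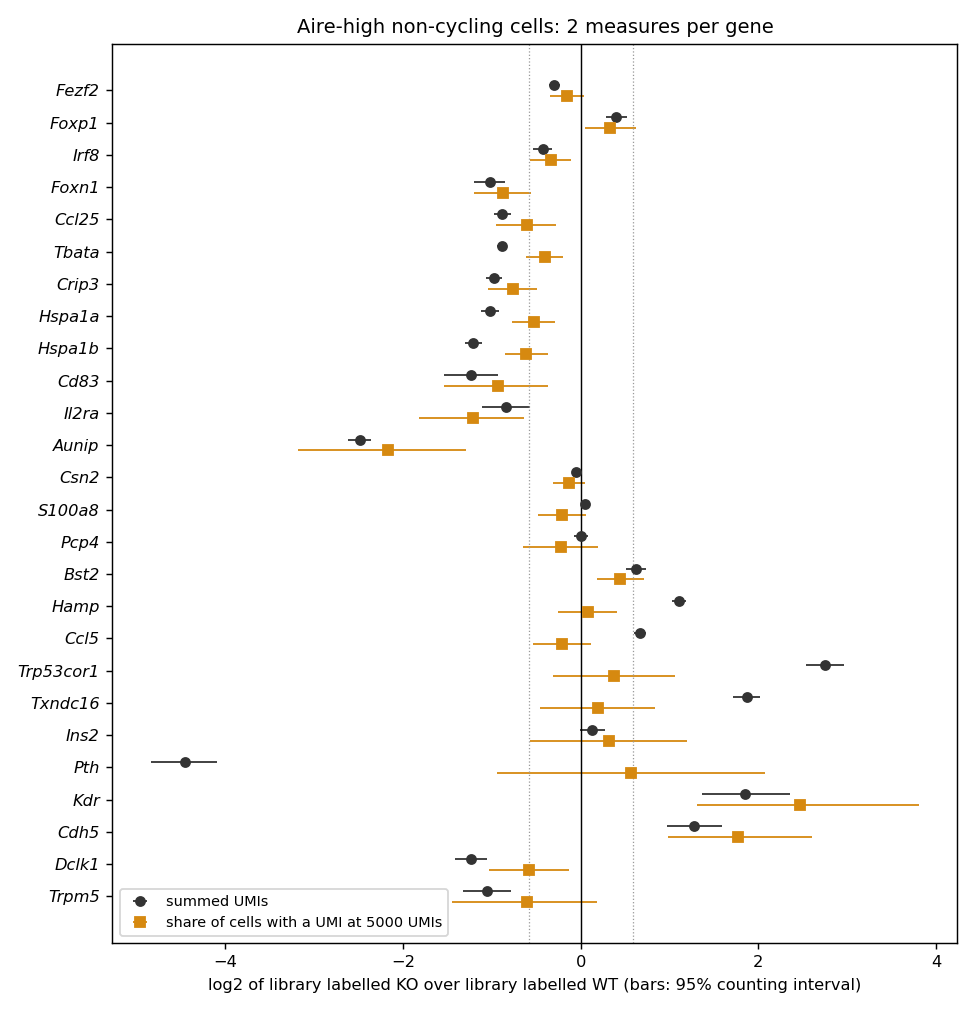
Log2 ratio of the KO-labelled library over the WT-labelled library for named genes in Aire-high cells, from summed UMIs (circles) and from the share of cells with a UMI at 5000 UMIs per cell (squares), with 95% counting intervals; dotted lines mark 1.5-fold. Both measures lie on the same side for Foxn1, Ccl25, Aunip and the heat-shock genes, whereas Pth and Trp53cor1 are far from 0 on UMIs only. The intervals of the squares are too wide where the share is high, as for Fezf2.

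Counting cells in place of UMIs gave a shorter list. At 5000 UMIs per cell 316 genes, or 2.0%, were called higher in the KO-labelled library and 369, or 2.33%, lower. Genes called the same way on UMIs, on cells and without the 5 highest cells of each library numbered 137 higher, or 0.866%, and 191 lower, or 1.21%. Taking 5 cells from each library removes a larger part of the smaller KO-labelled library, which favours lower calls. These measures were added after the summed values had been seen, and the genes named from them below were picked with their values in view.

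Foxn1, Crip3 and Cd83 were among the 191 lower genes. Foxn1, the master regulator of thymic epithelium, had 53.1 CPM in the KO-labelled library (47.7 to 58.9) and 108 CPM in the WT-labelled library (102 to 114), a log2 ratio of -1.02. Its UMIs were in 211 of 548 cells labelled KO and 514 of 833 labelled WT, with at most 8 and 13 in a cell. Crip3, a LIM-domain protein of the thymus, was in 29.7% of cells labelled KO and 50.6% of those labelled WT at 5000 UMIs. Cd83, which stabilises surface MHC class II, was in 6.63% and 12.7%. Foxn1 UMIs were spread over many cells, and the 5% of Aire-high cells with most of them held 27.8%. Cd83 UMIs were more gathered, at 62.8%, against a median of 39.2% over genes with at least 200 UMIs.

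Ccl25, the chemokine that draws CCR9-bearing thymocyte precursors, and Tbata, a thymus and testis protein, were lower in the same cells. Ccl25 had 188 CPM (178 to 199) in the KO-labelled library and 346 CPM (336 to 357) in the WT-labelled library, and Tbata 512 and 946 CPM. Both log2 ratios were -0.88. On cells at 5000 UMIs Ccl25 was in 20.3% and 30.9% of the KO- and WT-labelled libraries and passed the rule, and Tbata was in 56.1% and 74.1%, short of 1.5-fold. The same genes stood the other way round in non-cycling cells without Aire, where Ccl25 was at 93.7 CPM in the KO-labelled library and 72.8 CPM in the WT-labelled library, and Tbata at 153 and 123 CPM. Cells without Aire are a mixed group. The summed level of 8 cortical epithelial markers, Ccl25 among them, was 1348 CPM there in the KO-labelled library and 738 CPM in the WT-labelled library. The part of cell make-up in the turned order was not tested.

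Ccl25, Foxn1, Cd83 and Tbata belong to a list of 13 genes for cortical epithelial function, of which 5 were lower, the last being the Notch ligand Dll4, and 1 was higher, Cxcl12, another chemokine for precursors. Cxcl12 had a log2 ratio of 1.003 on UMIs, which was 0.23 with the call lost when members with endothelial or thymocyte markers were left out, and 0.45 with the call lost at 10 or more Aire UMIs. In the members left it was in 12 of 404 cells labelled KO and 20 of 643 labelled WT. The list median was 0.15 on UMIs and -0.21 on cells, where 3 genes were called lower and 1 higher. Over all tested genes 7.63% were lower and 6.08% higher on UMIs, and 2.33% and 2.0% on cells. Prss16, the thymus-specific serine protease, was at 33.8 CPM in the KO-labelled library and 24.0 CPM in the WT-labelled library, and Ctsl, cathepsin L, at 247 and 187 CPM. Psmb11, the thymoproteasome subunit, was at 12 and 10.6 CPM. None of these 3 was called, and on cells Prss16 lay the other way, in 6.06% of cells labelled KO and 8.07% of those labelled WT.

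Of 20 regulators of mTEC maturation, 1 was called lower on UMIs in the KO-labelled library, the T-box factor Tbx21, and 1 higher, Prdm1. That share was near the one over all genes (7.63% and 6.08%). Prdm1 had only 53 UMIs in cells labelled KO and 56 in those labelled WT. It lost its call on cells and without its 5 highest cells. On UMIs the list had 3 genes above equality, against 7285 of the 15818 tested genes, and a median log2 ratio of -0.22, against -0.03 over all. On shares of cells 2 of the 20 were lower, Tbx21 among them, and 0 higher, beside 2.33% and 2.0% of all tested genes. There 15 lay below equality, against 8504 of the 15818. Irf8, an interferon-regulatory factor, had 161 CPM (152 to 171) in the KO-labelled library and 217 CPM (209 to 226) in the WT-labelled library, and was in 44.9% and 56.7% of cells at 5000 UMIs. Irf4 was at 47.9 and 59.9 CPM in the KO- and WT-labelled libraries. Traf2 and Map3k14, which relay signals of the TNF receptor family, had log2 ratios of -0.58 and -0.52. Tnfrsf11a, encoding the RANK receptor, was at 251 and 259 CPM, and Relb at 235 and 246 CPM, in the KO- and WT-labelled libraries.

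Antigen presentation genes stood at close levels. None of 12 MHC class II genes and none of 13 MHC class I genes was called, with medians of 0.02 and 0.04. Over all tested genes 6.08% were called higher and 7.63% lower, so any list of this size, here or below, would hold few calls. H2-Aa, a class II chain, was at 4201 CPM in the KO-labelled library and 4490 CPM in the WT-labelled library. Of the co-stimulators, Cd80 was at 142 CPM (133 to 151) in the KO-labelled library and 169 CPM (162 to 177) in the WT-labelled library, a log2 ratio of -0.25, and Cd86 was called lower, at -0.75. Among 17 partners of Aire, 1 was called, Parp1, whose direction turned when at least 10 Aire UMIs were required. None of 15 cathepsin and autophagy genes was called.

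Of 20 immediate early and heat-shock genes 3 were called, all lower in the KO-labelled library, beside 7.63% of all tested genes. The list median was -0.32 on UMIs and -0.08 on cells. Hspa1a, an inducible Hsp70, had 162 CPM (153 to 172) in the KO-labelled library and 329 CPM (319 to 340) in the WT-labelled library, a log2 ratio of -1.02. Hspa1b, its near-identical neighbour, had 157 and 363 CPM, a log2 ratio of -1.21, and Hsph1, a co-chaperone, 72.0 and 124 CPM, a ratio of -0.78. Heat-shock and immediate early genes are known to respond to tissue digestion. For Hspa1a the log2 ratio was -1.39 in non-cycling cells with 1 to 4 Aire UMIs, -0.81 in those without Aire, -0.81 in cycling cells with 5 or more Aire UMIs and -0.64 in other cycling cells. In the endothelial-marked cells Hspa1a was higher, at 805 CPM in the KO-labelled library and 560 CPM in the WT-labelled library, and was in 60.4% and 60.8% of cells. The part of sample handling was not tested.

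The Hsp70 pair is shown by its promoters, since both genes were lower. Reads can be divided between the genes only where their transcripts differ, which these windows, mostly before the start, do not show. The windows run from 250 bases before to 50 after the start (RefSeq, GRCm38.p6) at chr17:34972107-34972406 for Hspa1a and chr17:34959189-34959488 for Hspa1b, both on the minus strand and 5′ to 3′, with a match to the heat-shock element GAANNTTC, searched on both strands, in capitals.
Hspa1a: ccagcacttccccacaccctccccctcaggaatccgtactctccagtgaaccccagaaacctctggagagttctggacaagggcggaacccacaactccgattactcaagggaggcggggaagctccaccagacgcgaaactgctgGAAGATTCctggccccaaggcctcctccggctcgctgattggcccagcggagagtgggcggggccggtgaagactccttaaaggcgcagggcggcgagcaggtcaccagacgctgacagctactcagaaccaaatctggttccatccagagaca
Hspa1b: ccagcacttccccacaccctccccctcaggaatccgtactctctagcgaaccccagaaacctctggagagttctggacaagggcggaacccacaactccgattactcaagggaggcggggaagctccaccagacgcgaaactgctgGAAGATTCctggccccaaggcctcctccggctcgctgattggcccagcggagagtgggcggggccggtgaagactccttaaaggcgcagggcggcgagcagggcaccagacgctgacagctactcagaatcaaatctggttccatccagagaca
The windows were identical at 296 of 300 bases and differed by C44T, T47C, T249G and C276T, counted from the first base of the window with the Hspa1a base first. The element was found in 7.86% of 32851 mouse promoter windows of this length. The forkhead core TGTTTAC, found on either strand in 3.65% of the windows, was in none of the 13 windows found among 15 genes looked up, which included Fezf2, Foxn1, Ccl25, Tbata, Irf8 and Aunip. At that rate few if any matches would be found in 13 windows. The Fezf2 window (chr14:12345816-12346115, minus strand) lay inside the annotated gene (12342094 to 12348189), so a start at the gene's 5′ end was not covered.

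Genes higher in the KO-labelled library by all 3 measures were led by endothelial genes. Kdr, a VEGF receptor, was in 5.68% of Aire-high cells labelled KO and 1.02% of those labelled WT at 5000 UMIs, Cdh5, a cadherin of vessel walls, in 8.71% and 2.56%, and Cd36, a fatty-acid carrier, in 13.4% and 4.23%. Of 8 endothelial markers 5 were called higher on cells, beside 2.0% of all tested genes. Their summed level was 216 CPM in Aire-high cells labelled KO and 132 CPM in those labelled WT, and 313 and 183 CPM in cells without Aire. At least 2 of the markers were found in 19.9% of Aire-high cells labelled KO and 12% of those labelled WT. The endothelial-marked cells without Epcam included 6 with 5 or more Aire UMIs in the KO-labelled library and 4 in the WT-labelled library. Without members that carried at least 2 endothelial or 2 thymocyte markers, Kdr was in 1 of 404 cells labelled KO and 2 of 643 labelled WT, as this removal dictates, and 58 of the 137 higher and 132 of the 191 lower genes remained called on cells, beside 1.49% of all tested genes called higher and 2.62% called lower in the cells left. Whether endothelial RNA entered as doublets, as free RNA or otherwise was not tested.

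Cryab, Ltb, Msln and Igll1 were among the 58 higher genes that remained called without those cells. Cryab, a small heat-shock protein of the lens, was at 76.2 CPM in the KO-labelled library and 32.6 CPM in the WT-labelled library, and in 21.2% and 12% of cells. Ltb, lymphotoxin beta, was in 25% and 14.9% of cells of the KO- and WT-labelled libraries, Msln, mesothelin, in 27.8% and 17.8%, and Igll1, a surrogate light chain of B-cell precursors, in 7.58% and 2.94%. Bst2, an interferon-induced membrane protein, was higher on UMIs, at 178 and 116 CPM in the KO- and WT-labelled libraries, and was in 43.6% and 32.0% of cells, short of 1.5-fold. Hamp, hepcidin, had a log2 ratio of 1.10 on UMIs and was in 24.6% and 23.3% of cells, an interval that includes equality. Ccl5 was higher on UMIs, at 554 and 349 CPM in the KO- and WT-labelled libraries, and was in 24.6% and 28.4% of cells.

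Tuft-cell transcripts, which mark chemosensory mimetic cells, were lower in these cells and in cells without Aire of the KO-labelled library. All 8 tested tuft markers were called lower on UMIs, beside 7.63% of all tested genes. On cells 2 of them, Gnb3 and Alox5ap, were called lower, beside 2.33% of all tested genes. Dclk1 was at 49.8 CPM in Aire-high cells labelled KO and 117 CPM in those labelled WT, and at 375 and 693 CPM in non-cycling cells without Aire. The summed tuft level was 152 CPM in Aire-high cells labelled KO and 325 CPM in those labelled WT, with all 9 markers detected in both, and 1219 and 1928 CPM in cells without Aire. Whether Aire-high cells hold these transcripts themselves was not tested.

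Antigens were also grouped by tissue, and the counts are to be read beside those over all tested genes (7.63% lower and 6.08% higher on UMIs, 2.33% and 2.0% on cells). Of 13 tested genes of the nervous system and retina, 6 were lower and 1 higher on UMIs, with a median of -0.38. On cells 2 were lower and 1 higher, and 11 lay below equality, against 8504 of all 15818 genes. Npy, neuropeptide Y, was in 39 cells labelled KO and 81 labelled WT, at 69.96 and 154 CPM. Of 8 genes of testis, ovary and egg, 4 were lower and 1 higher on UMIs, with a median of -0.54, and 2 were lower on cells. Fabp9, a sperm fatty-acid-binding protein that is also in the Fezf2-linked list, was in 3.41% of cells labelled KO and 7.17% of those labelled WT. For liver and plasma proteins the measures parted, with a median of 0.31 on UMIs and -0.12 on cells. Of 14 skin genes 6 were lower on UMIs and 0 on cells, and of 9 gasdermins, the pore-forming proteins of cell death, 4 and 0. Over all tested genes the median on cells was -0.02.

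**Figure D4:**
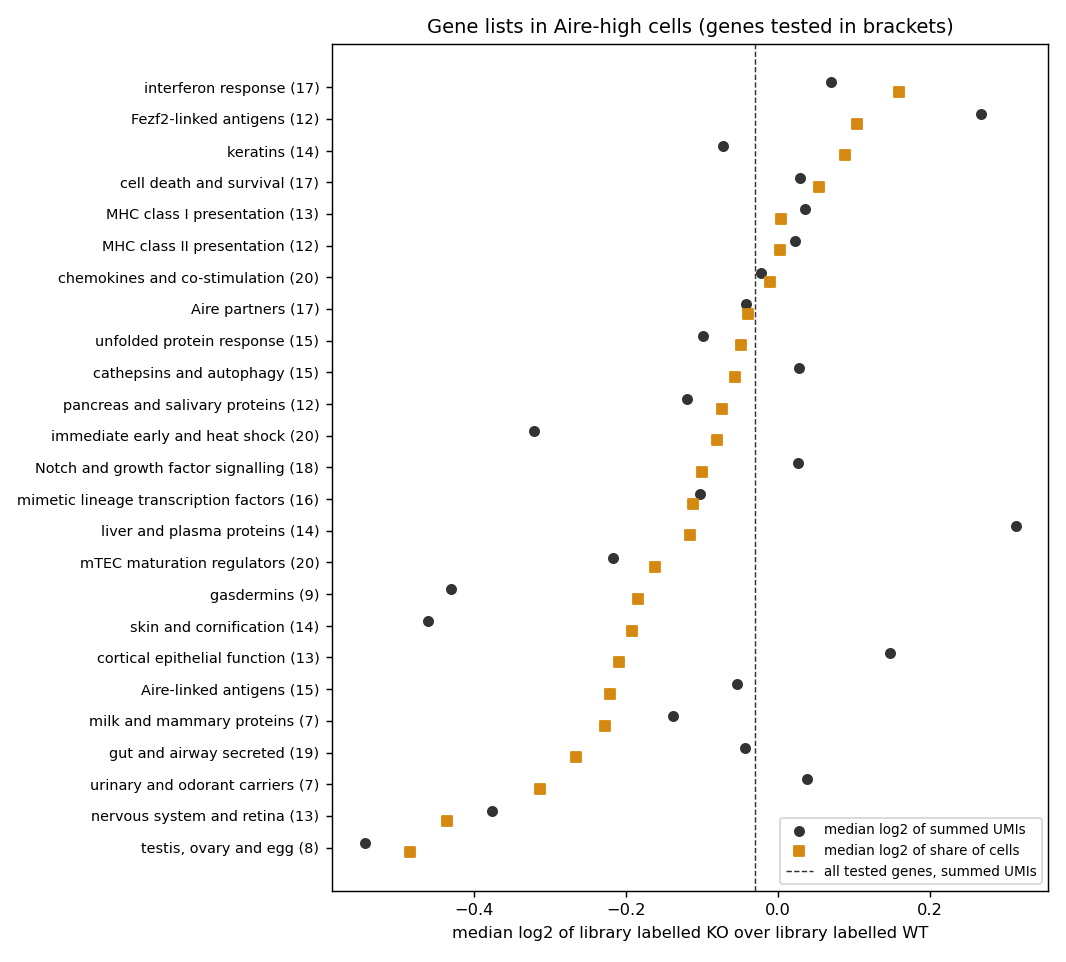
Median log2 ratio of the KO-labelled library over the WT-labelled library for each gene list in Aire-high cells (vertical axis, tested genes in brackets), from summed UMIs (circles) and shares of cells (squares); the dashed line is the median of all tested genes on UMIs. Testis, ovary and egg and nervous system genes lie lowest on shares of cells, and liver and plasma proteins lie at 0.31 on UMIs and at -0.12 on cells.

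The breadth of expression per cell was compared at equal depth. At 5000 UMIs an Aire-high cell showed a median of 2153.5 genes in the KO-labelled library (quartiles 1994 and 2344) and 2185 in the WT-labelled library (2034 and 2359). Of 137 tissue-restricted antigens, a median cell showed 9 in the KO-labelled library (quartiles 6 and 12) and 10 in the WT-labelled library (7 and 13), with means of 9.54 and 10.3. Non-cycling cells with 1 to 4 Aire UMIs were close, with a median of 8 antigens in both libraries. Their means were 9.11 and 8.85 in the KO- and WT-labelled libraries. Non-cycling cells without Aire showed medians of 5 and 6 antigens, and cycling cells with 5 or more Aire UMIs 7 and 6, in the KO- and WT-labelled libraries. Cells without Aire showed more genes, with medians of 2303 and 2292. Only 845 of 2426 of them labelled KO and 965 of 2403 labelled WT reached 5000 UMIs. Across the Aire ranges, cells with 5 to 9, 10 to 19 and 20 or more Aire UMIs showed means of 9.33, 9.82 and 9.30 antigens in the KO-labelled library and 10.7, 10.1 and 10.01 in the WT-labelled library.

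**Figure D5:**
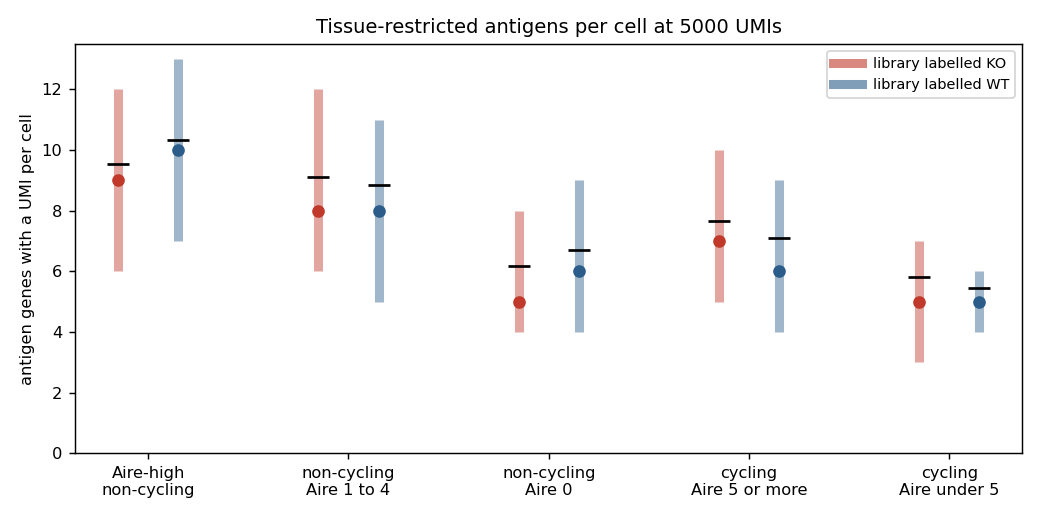
Antigen genes with a UMI per cell at 5000 UMIs (vertical axis), by cell group, in the KO-labelled library (red) and the WT-labelled library (blue); thick bars span the quartiles, circles are medians and black dashes are means. Aire-high cells had medians of 9 and 10 in the KO- and WT-labelled libraries, above the 5 and 6 of cells without Aire, and their quartiles overlapped. Non-cycling cells with 1 to 4 Aire UMIs had a median of 8 in both libraries.

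Some antigens were found together in a cell. At 5000 UMIs S100a9, the partner of S100a8 in calprotectin, was found in 88 of 178 S100a8-bearing cells of the KO-labelled library and 152 of 304 of the WT-labelled library, against 5.71% and 6.29% of cells without S100a8. Gsdmc3 was found in 3 of 6 Gsdmc2-bearing cells labelled KO and 10 of 20 labelled WT, against 0.575% and 1.58% of the others. Csn2 was in 16 of 17 Csn1s2a-bearing cells labelled KO and 31 of 31 labelled WT, against 75.1% and 82.3% of the others. Another casein, Csn3, was in only 2 of 17 and 3 of 31 Csn1s2a-bearing cells of the KO- and WT-labelled libraries, against 4.70% and 2.67% of the others. Csn1s1 was in 0 of 17 and 7 of 31, against 1.96% and 2.13%. Clps, pancreatic colipase, was in 1 of 22 and 2 of 26 Ins2-bearing cells of the KO- and WT-labelled libraries, against 1.58% and 4.90% of the others. The Csn3 and Clps counts are too small to show that these genes go together. S100a9 thus accompanied S100a8 at about the same rate in both libraries.

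Compared with non-cycling cells without Aire, the 12 genes with the largest difference in both libraries included Madcam1 and Bglap. Madcam1, an adhesion molecule of gut vessels, was at 67.7 CPM in Aire-high cells and 1.37 CPM in cells without Aire in the KO-labelled library, and at 77.8 and 1.40 CPM in the WT-labelled library. Bglap, osteocalcin, was at 96.0 and 1.46 CPM in the KO-labelled library and at 106 and 2.57 CPM in the WT-labelled library. Madcam1 was in 20.4% of Aire-high cells labelled KO and 23.3% of those labelled WT, and Bglap in only 7.30% and 6.84%. Others among the 12 were Marco, Il9, Hba-x, Rhox12, Apol11a, Iglon5, Cd207 and Gtsf1, each, like Bglap, in under 10% of Aire-high cells of either library. Their summed levels could differ between the libraries, on few cells. Il9 was at 30.7 CPM in Aire-high cells labelled KO and 87.0 CPM in those labelled WT, from 7 and 21 cells. On shares of cells at 5000 UMIs its interval included equality (-2.99 to 0.30). Rhox12 was at 46.2 and 16.0 CPM, from 14 cells labelled KO and 13 labelled WT, and was also called higher on shares of cells. At the other end were Gnat3 and Rgs13 of tuft cells, Tagln, and Ccl21a, the chemokine of immature mTECs, which was at 550 CPM in Aire-high cells and 4739 CPM in cells without Aire in the KO-labelled library, and at 402 and 3195 CPM in the WT-labelled library. These contrasts follow the choice of cells by Aire and are given as a description.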

How the data were processed

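The deposited files were 10x matrices of raw UMI counts per gene and barcode, which the authors made; per the file headers this was Cell Ranger 7.0.1. Cell Ranger, Seurat and mm10 are named in the submitters' processing notes. Barcodes numbered 4277 (labelled KO) and 4957 (labelled WT), with 25233944 and 33120715 UMIs and a lowest total of 500. Counts of genes sharing a symbol were summed. UMIs of the chosen cells were added per library (6746727 and 11212870) and given as CPM with exact Poisson intervals. Ratios have exact conditional binomial intervals and shares Clopper-Pearson ones. For ratios of shares of cells the ratio interval is too wide where the share is high. A call needs 1.5-fold and an interval clear of equality, at 50 UMIs or more. Cells were thinned at random to 5000 UMIs for shares, genes and antigens. The interval code was checked on simulated data.

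Genes were named by rank (12 each way, seen in at least 20 cells of the higher library), up to 3 each way per list, 8 gathered genes (ties broken by total UMIs, chosen after seeing the data), 12 genes over cells without Aire, and 14 fixed genes. Other genes were named after their values were seen. One gene that the rank rule names is not reported here. Members, lists and rules were chosen with earlier results of these data known. Of 111 named genes, 23 share a strand and position with a further annotated gene and 31 lie across one on the opposite strand, so their counts may be shared. Scrublet (scanpy 1.11.5) called 0 doublets in both libraries, so it gave no usable call, and the cells with the highest scores were left out as an alternative. TMM (edgeR 4.0.16) and median-of-ratios scaling (DESeq2 1.42.0), other thresholds, filters and depths were tried. Python 3.11.15 and R 4.3.3 were used.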

Additional observations from a re-analysis of the deposited data

Results flagged for a closer look

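Of the genes followed through the alternatives, 9 that were called in Aire-high cells had the opposite direction, with an interval clear of equality, in non-cycling cells without Aire. With 1 library per group the difference between the groups of cells was not tested. Cells without Aire are also a mixed group, with summed cortical epithelial markers at 1348 CPM in the KO-labelled library and 738 CPM in the WT-labelled library. The log2 ratio of the KO-labelled library over the WT-labelled library was -0.88 for Ccl25 in Aire-high cells and 0.37 in cells without Aire. For Tbata it was -0.88 in Aire-high cells and 0.32 in cells without Aire, and for Ccl5 0.67 and -0.35. Ccl25 was seen in 170 Aire-high cells labelled KO and 359 labelled WT, and Tbata in 377 and 693. The other 6 were each seen in fewer cells than these: Txndc16 was at 1.87 in Aire-high cells and -0.44 in cells without Aire, Fbxo47 at 1.89 and -1.29, Gm11659 at -2.83 and 1.29, Ube2cbp at -2.62 and 1.56, Gm44618 at -3.03 and 1.87, and Ttr at -3.80 and 1.13. Of the 9, Ccl25 was also called on shares of Aire-high cells. Ccl5 lay at -0.21 there and kept its call in 7 of 12 alternatives. Without the 5 highest cells Fbxo47 turned to -0.24 and Ube2cbp to 0.055, and Txndc16, Gm44618 and Ttr lost their calls.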

How the results depend on the processing

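The count of genes called higher in the KO-labelled library, 962, was 615 with cells thinned to 5000 UMIs, 398 without the 5 highest cells per gene, 316 on shares of cells, 236 on shares without marked members, 1643 with no low-count filter and 344 at 200 UMIs per gene. The count called lower, 1207, was 369 on shares of cells, 415 on shares without marked members and 506 at 200 UMIs per gene. Thinning and stricter filters leave fewer UMIs or genes by construction, and taking 5 cells from each library removes a larger part of the smaller library labelled KO. The other alternatives kept both counts within 1.5 times, but not the same genes: 489 of the 962 and 684 of the 1207 were shared with no cycling UMI, and 545 and 698 at 10 Aire UMIs. The log2 ratio of the share of Aire-high cells, -0.43, was -0.27 at 2000 UMIs per cell with 2 Aire UMIs required, which changes depth and threshold together. Genes per cell, at -31.5 in the KO-labelled library minus WT, differed by -50 at 10000 UMIs and by -51.5 with no cycling UMI. Mean antigens per cell, at -0.79, differed by -0.39 at 2000 UMIs, -0.51 at 3 Aire UMIs, -0.35 at 10 Aire UMIs and -0.44 with no cycling UMI. The cause of these shifts was not tested. Without the 5 highest cells the log2 ratio turned to -0.024 for Lmnb1, -0.30 for Stn1, -0.24 for Fbxo47 and 0.055 for Ube2cbp. Fbxo47 was also at -0.43 with 10 Aire UMIs and -0.71 with no cycling UMI, and Parp1 at 0.46 with 10 Aire UMIs. Of 648 values for 54 genes under 12 alternatives, 444 stayed within the first interval. No paired analysis was possible because each group is 1 library. The share of higher among called genes, 44.4%, was 20.8% without the 5 highest cells. Antigens seen in under 20 cells rest on those few cells at any depth.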
